A study of Mus musculus with 9 samples.

Results

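The genes described here are 49 mouse genes of DNA replication, chosen by name from the genes that license origins, activate the replicative helicase, synthesise and join DNA, supply nucleotides and rebuild chromatin behind the fork. No measured value was used as a filter, but earlier results of these data were known when the genes were listed. All 49 were found by Ensembl identifier among the 54232 genes of the count table, and all 49 passed the filter on low counts, which kept 17602 genes. They were measured by RNA-seq in primary mouse embryonic neural stem cells, labelled as coming from the subventricular zone of the brain, that carried sh900 or sh902, both hairpins against Phf2, or shNT, a non-targeting hairpin. A short hairpin RNA is cut by the cell into a small RNA that lowers the transcript it matches, and Phf2 encodes a histone demethylase of the KDM7 family. All cells, controls included, grew on laminin in proliferation medium with fibroblast growth factor at 10 ng/mL and epidermal growth factor at 20 ng/mL, and RNA was taken 3 days after treatment. Each hairpin has 3 libraries, of which 1 carries the date 3 September in its title, 1 carries 30 August and 1 is undated. The labels do not state what the dates mark, how the hairpins were delivered, or whether libraries of a group were separate cultures or animals, so every p-value here rests on differences among libraries whose source, biological or technical, is unknown.

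Replication begins when the origin recognition complex, with Cdc6 and Cdt1, loads the ring-shaped MCM complex onto DNA in G1 phase. The kinase Cdc7 with its partner Dbf4, and then Cdc45 and the GINS complex, turn that ring into the moving helicase at the start of S phase. Primase and the polymerases copy the strands, the Rfc complex loads the sliding clamp Pcna, and Fen1 and Lig1 finish the lagging strand. Neural stem cells divide in culture under fibroblast and epidermal growth factor and leave the cell cycle as they differentiate. Most of these genes are transcribed more in cycling cells than in resting cells, many of them through the E2F transcription factors. In bulk RNA, fewer cells in S phase and less RNA of these genes per cell cannot be told apart.

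Library totals ran from 23212472 to 32392496 estimated counts. Phf2 stood at 25.5, 14.9 and 19.8 CPM with sh900 and 28.1, 17.0 and 25.01 CPM with sh902, against 48.6, 52.8 and 56.3 CPM with shNT (3 September, 30 August and undated libraries). CPM here is the count scaled to a common library size with edgeR's TMM factors. Every hairpin library was below every control library in Phf2, and edgeR's quasi-likelihood test gave a log2 fold change for the mean of both hairpins of -1.28 ± 0.20 (SE, adjusted p = 0.182) when dates were ignored and -1.32 ± 0.16 (SE, adjusted p = 0.00519) with the date as a replicate block. All 10 neural stem cell markers looked up, Sox2 and Nes among them, passed the filter. Of 7 microglial markers 1 passed it, 1, C1qa, was at 0 in all 9 libraries, and the summed level of the list was 0.85 to 3.47 CPM in hairpin libraries and 0.65 to 1.75 CPM in controls.

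The E2F motif stood in the promoters of many of these genes. RefSeq (GRCm38.p6) gave windows from 250 bases before to 50 bases after a start for 41 of the 49 genes, 50 windows in all, since 7 genes have more than 1 start. The motif was searched on both strands as TTTCCCGC, TTTGGCGC, TTTCGCGC or TTTGCCGC. At least 1 window held it for 16 of the 41 genes (39%), against 704 of 27025 genes of all kinds (2.6%) and 3.29% of protein-coding genes. By window it was found in 16 of 50 (32%), against 744 of 32851 (2.26%). Its holders were Orc1, Cdc6, Cdt1, Mcm3, Mcm5, Mcm6 and Mcm7 of the licensing genes, Gins3 of the helicase genes, Pola1, Pold1 and Pole2 of the polymerases, and Rfc3, Lig1, Uhrf1, Dnmt1 and Clspn. Mcm7, Lig1, Uhrf1 and Dnmt1 have several windows and hold it in 1 of them. None of the 4 nucleotide genes had it. The letters CCAAT were in a window of 27 of the 41 genes (65.9%, against 41.1% of all genes). The CHR element of mitotic genes, TTTGAA or TTCGAA, was in a window of 10 (24.4%, against 21.7%). A match is a string of letters and not a measured binding site.

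Windows of 4 genes are printed 5′ to 3′ on the strand of the gene as examples of wide and narrow ranges over the libraries. Of the genes with a window, Tk1 had the widest range and Rpa3 the narrowest. Gins4 had a narrower range still but no window, and Mcm10, Pole2 and Uhrf1 had wider ranges than Mcm3 and Clspn. Mcm3, a helicase subunit (chr1:20820263-20820562, minus strand), and Clspn, a fork checkpoint adaptor (chr4:126556730-126557029, plus strand), differed strongly between libraries and hold the E2F motif, in capitals. Tk1, thymidine kinase (chr11:117825965-117826264, minus strand), differed as strongly, and Rpa3, the small subunit of the single-strand binding complex (chr6:8259092-8259391, minus strand), differed little. Neither of these holds those letters in the window.
Mcm3: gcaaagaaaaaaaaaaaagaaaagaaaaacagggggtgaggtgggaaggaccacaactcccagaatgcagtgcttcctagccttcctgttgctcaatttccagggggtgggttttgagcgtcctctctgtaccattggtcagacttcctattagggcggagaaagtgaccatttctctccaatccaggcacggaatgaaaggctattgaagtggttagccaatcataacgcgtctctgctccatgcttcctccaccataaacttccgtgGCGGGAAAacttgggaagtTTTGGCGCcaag
Clspn: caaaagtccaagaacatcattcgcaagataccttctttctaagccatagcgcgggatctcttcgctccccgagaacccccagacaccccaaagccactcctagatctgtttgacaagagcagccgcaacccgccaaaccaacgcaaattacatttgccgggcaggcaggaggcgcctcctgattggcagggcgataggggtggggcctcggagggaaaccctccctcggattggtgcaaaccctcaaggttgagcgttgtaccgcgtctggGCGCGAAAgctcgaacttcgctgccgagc
Tk1: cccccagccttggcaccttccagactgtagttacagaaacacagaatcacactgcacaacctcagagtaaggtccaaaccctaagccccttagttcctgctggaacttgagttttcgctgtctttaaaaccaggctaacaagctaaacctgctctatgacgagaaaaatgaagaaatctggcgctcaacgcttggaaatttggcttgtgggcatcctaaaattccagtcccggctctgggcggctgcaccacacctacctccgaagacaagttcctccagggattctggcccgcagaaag
Rpa3: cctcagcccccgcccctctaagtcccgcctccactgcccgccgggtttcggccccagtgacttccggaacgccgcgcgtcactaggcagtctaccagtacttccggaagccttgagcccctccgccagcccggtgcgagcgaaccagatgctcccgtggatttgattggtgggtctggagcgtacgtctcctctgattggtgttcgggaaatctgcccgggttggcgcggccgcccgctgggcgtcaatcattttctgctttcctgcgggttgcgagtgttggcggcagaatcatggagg
Mcm3 has 2 matches, at 19 and 38 bases after the start, and Clspn has 1, at 21 bases after it. Over the 9 libraries the 16 genes with the motif had a median range of 3.49 on the log2 scale (1.61 to 4.22), and the 25 without it 2.32 (0.75 to 4.39). The 2 sets overlap over most of their width, and no test of this difference was made.

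The replication genes varied together, and the control libraries marked both ends of their range. Their summed level was 1800.0, 1604 and 2476 CPM with sh900 and 2532, 1902 and 2971 CPM with sh902, against 904 CPM on 3 September, 4780.0 CPM on 30 August and 1556 CPM in the undated library with shNT. Of the 49 genes, 48 were highest of all 9 libraries in the 30 August control, with Rnaseh2a, a subunit of the enzyme that removes RNA from DNA, as the exception. In the 3 September control 44 were lowest, the exceptions being Orc6, Gins4, Rpa1, Rpa3 and Tipin. Both held for 43 genes, against 4.37% of all genes tested. All 6 hairpin libraries lay inside the range of the 3 controls for 45 of 49 genes, against 9.89% of all genes. Per gene and with no prior count, the median log2 range was 0.69 over the sh900 libraries and 0.59 over the sh902 libraries. Over the shNT libraries it was 2.56, and these ranges by group have no value over all genes beside them. Over all 9 libraries, and with a prior count of 2, the median log2 range was 2.55, against 1.36 for all genes tested.

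**Figure D1:**
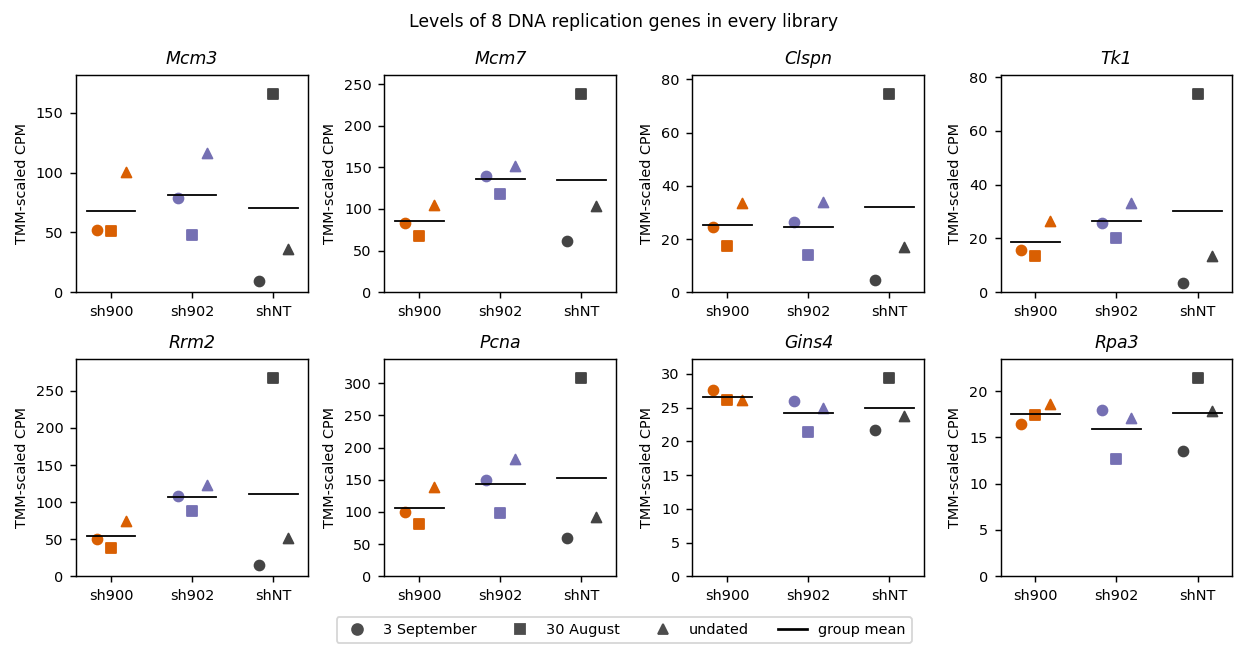
Levels of 8 replication genes in every library, in TMM-scaled CPM on linear axes from 0, with sh900 and sh902 left of shNT; each point is 1 library, its shape gives the date label and the line is the group mean. In Mcm3, Clspn and Tk1 the 3 shNT points are spread most widely, with 30 August on top and 3 September at the bottom, while the points of Gins4 and Rpa3 lie close together.

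Of the 10 origin licensing genes, Mcm3 had the widest range and Orc6 the narrowest. In each list of 3 values below, the libraries are those of 3 September, 30 August and undated. Mcm3 (ENSMUSG00000041859, chromosome 1, 20802968 to 20820312 on GRCm38) had 51.7, 51.3 and 100.8 CPM with sh900 and 79.0, 48.1 and 116 CPM with sh902, against 9.62, 165 and 35.9 CPM with shNT. Its 3 September control lay below every other library and its 30 August control above, a range of 4.09 on the log2 scale. Orc6, a subunit of the origin recognition complex, had 20.0, 29.0 and 26.0 CPM with sh900 and 26.1, 33.8 and 32.8 CPM with sh902, against 18.7, 36.6 and 17.4 CPM with shNT, a range of 1.07. Here the undated control was lowest, and the sh900 library of 3 September lay close to the control of that date. The other helicase subunits followed the pattern of Mcm3. Mcm2 had 70.8, 67.7 and 106 CPM with sh900 and 109, 78.9 and 128 CPM with sh902, against 21.2, 199.7 and 53.6 CPM with shNT. Mcm4 had 65.9, 67.4 and 106 CPM with sh900 and 105, 82.3 and 127 CPM with sh902, against 28.3, 207 and 50.2 CPM with shNT. Mcm5 had 43.8, 34.1 and 68.4 CPM with sh900 and 81.3, 47.6 and 92.7 CPM with sh902, against 11.03, 143 and 34.9 CPM with shNT. For these 3 subunits, as for Mcm3, every hairpin library stood between the lowest and the highest control. Mcm6 had 33.5, 30.9 and 70.7 CPM with sh900 and 63.6, 45.3 and 89.5 CPM with sh902, against 12.7, 146 and 31.3 CPM with shNT. Mcm7 had 82.9, 68.0 and 105 CPM with sh900 and 139, 117 and 152 CPM with sh902, against 61.6, 238 and 103 CPM with shNT. The range of Mcm7, 1.95, was the narrowest of the 6 subunits, and its gene overlaps Mir106b, Mir93, Mir25, Cops6 and Ap4m1, and reads of overlapping genes could be shared. Orc1, Cdc6 and Cdt1, which with Orc6 load the ring, had log2 ranges of 3.44, 4.07 and 3.87.

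The 6 MCM proteins form 1 ring, and their transcripts were not in a fixed ratio. Per kilobase of exon, the highest of the 6 stood above the lowest by 2.61, 2.83 and 1.95 times with sh900 and 2.31, 2.73 and 1.92 times with sh902, against 5.43, 2.01 and 3.48 times with shNT (3 September, 30 August, undated). The ratio of Mcm7 to Mcm3 in CPM was 1.60, 1.33 and 1.04 with sh900 and 1.76, 2.44 and 1.31 with sh902, against 6.41, 1.44 and 2.88 with shNT. The subunits were thus least alike in the 3 September control, where all 6 were lowest. In CPM per kilobase on that date, Mcm3 stood at 13.8 with sh900 and 21.1 with sh902, against 2.56 with shNT, and Mcm7 at 18.7 with sh900 and 31.4 with sh902, against 13.9 with shNT. Exon lengths are those of all annotated exons of a gene together, so levels per kilobase are approximate.

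Among the 8 genes that activate the helicase, the log2 range ran from 0.45 to 4.22. Mcm10, which helps Cdc45 and GINS engage the ring, had 16.03, 11.7 and 24.4 CPM with sh900 and 25.2, 18.2 and 32.6 CPM with sh902, against 2.90, 55.3 and 11.03 CPM with shNT, a log2 range of 4.22. Dbf4, the activating subunit of the Cdc7 kinase, had 32.1, 31.6 and 43.2 CPM with sh900 and 41.7, 25.5 and 48.3 CPM with sh902, against 10.6, 79.2 and 27.8 CPM with shNT. Both were lowest in the 3 September control and highest in that of 30 August. Gins4, a subunit of the GINS complex, had 27.6, 26.2 and 26.2 CPM with sh900 and 26.0, 21.4 and 24.9 CPM with sh902, against 21.6, 29.3 and 23.8 CPM with shNT, a log2 range of 0.45 that was the smallest of the 49. The 4 GINS subunits act as 1 complex, and the ratio of Gins4 to Gins1 in CPM was 4.11, 5.90 and 2.87 with sh900 and 2.53, 3.02 and 2.20 with sh902, against 8.72, 1.73 and 3.26 with shNT. The ratio was highest in the control where most replication genes were lowest, and it was lowest in the control where they were highest. Cdc45, Cdc7, Gins1, Gins2 and Gins3 had log2 ranges of 3.10, 2.25, 2.73, 2.55 and 1.61.

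In the group of 8 polymerase and primase genes, the accessory subunit of the leading-strand polymerase varied most. Pole2 had 2.97, 4.44 and 6.62 CPM with sh900 and 6.35, 6.32 and 9.29 CPM with sh902, against 0.610, 12.7 and 4.24 CPM with shNT, a log2 range of 4.22. The 3 September control held 16 counts of Pole2, so that value is imprecise. Prim2, the large primase subunit, had 23.3, 18.6 and 26.7 CPM with sh900 and 25.4, 20.6 and 27.8 CPM with sh902, against 12.6, 41.2 and 17.9 CPM with shNT, a range of 1.71. Both were highest in the 30 August control and lowest in that of 3 September. Pola1, Pola2, Prim1, Pold1, Pold2 and Pole had log2 ranges of 2.62, 1.88, 2.38, 3.32, 2.01 and 3.59.

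Pcna, the sliding clamp (ENSMUSG00000027342, chromosome 2, 132249162 to 132253314), was the most abundant of the 49 per kilobase of exon, at a mean of 56.0 CPM per kilobase. It had 99.8, 81.3 and 138 CPM with sh900 and 150.4, 98.4 and 182 CPM with sh902, against 59.9, 308 and 92.0 CPM with shNT. The control libraries enclosed all 6 hairpin libraries, over a log2 range of 2.36. Named pseudogenes of Pcna are annotated, so its counts may be shared with copies. Rfc1, the large subunit of the clamp loader, had 79.8, 74.5 and 84.9 CPM with sh900 and 99.7, 98.0 and 108 CPM with sh902, against 63.7, 134 and 80.5 CPM with shNT, a range of 1.07. Rfc2, Rfc3, Rfc4 and Rfc5, the small loader subunits, had ranges of 1.32, 1.61, 2.32 and 2.33. Of the 6 genes that bind single strands or process the lagging strand, Lig1, which seals nicks, varied most and Rpa3 least. Lig1 had 48.0, 32.2 and 63.7 CPM with sh900 and 73.4, 46.9 and 89.8 CPM with sh902, against 13.5, 149 and 41.7 CPM with shNT, a range of 3.46. Rpa3 (ENSMUSG00000012483, chromosome 6, 8255936 to 8259173) had 16.4, 17.4 and 18.7 CPM with sh900 and 18.01, 12.6 and 17.1 CPM with sh902, against 13.6, 21.4 and 17.9 CPM with shNT, a range of 0.75. In Rpa3 the lowest library was sh902 of 30 August and not a control. Rpa1, Rpa2, Fen1 and Rnaseh2a had ranges of 1.28, 2.10, 2.65 and 1.03.

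The 4 genes of nucleotide supply included the gene with the widest range of the 49. Tk1, thymidine kinase (ENSMUSG00000025574, chromosome 11, 117815526 to 117826092), had 15.5, 13.5 and 26.6 CPM with sh900 and 25.6, 20.3 and 33.1 CPM with sh902, against 3.43, 73.6 and 13.5 CPM with shNT, a log2 range of 4.39. Rrm2, the subunit of ribonucleotide reductase that is made in S phase, had 49.8, 38.1 and 74.9 CPM with sh900 and 108, 88.1 and 123 CPM with sh902, against 15.6, 267 and 51.1 CPM with shNT, a range of 4.09. Rrm1, the large subunit of that enzyme, had 135, 113 and 172 CPM with sh900 and 173, 101.3 and 171 CPM with sh902, against 73.4, 357 and 128 CPM with shNT, a range of 2.28. All 3 genes were highest in the 30 August control and lowest in that of 3 September. The ratio of Rrm2 to Rrm1 in CPM was 0.37, 0.34 and 0.43 with sh900 and 0.63, 0.87 and 0.72 with sh902, against 0.21, 0.75 and 0.40 with shNT. At every date label it was higher with sh902 than with sh900. Tyms, thymidylate synthase, which has a named pseudogene, had a range of 2.31.

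Of the 5 genes that restore chromatin behind the fork, Uhrf1, which brings the maintenance methyltransferase Dnmt1 to new DNA, varied most. Uhrf1 had 74.6, 56.8 and 119 CPM with sh900 and 125, 76.2 and 150.3 CPM with sh902, against 11.8, 219.9 and 56.9 CPM with shNT, a log2 range of 4.21. Chaf1a, the large subunit of the histone chaperone CAF-1, had 22.3, 20.2 and 35.3 CPM with sh900 and 28.6, 22.0 and 38.3 CPM with sh902, against 7.40, 59.9 and 14.5 CPM with shNT. Slbp, which binds the stem-loop of replication-dependent histone mRNA, had 37.2, 48.3 and 53.7 CPM with sh900 and 41.2, 37.2 and 44.4 CPM with sh902, against 21.7, 64.1 and 26.8 CPM with shNT, a range of 1.56. In all 3 the lowest and the highest library were the 3 September and the 30 August control. Chaf1b and Dnmt1 had ranges of 3.64 and 2.01. The fork protection genes differed from each other. Clspn, the adaptor that passes the stalled-fork signal to the checkpoint kinase Chek1 (ENSMUSG00000042489, chromosome 4, 126556935 to 126593903), had 24.4, 17.3 and 33.7 CPM with sh900 and 26.2, 14.1 and 33.7 CPM with sh902, against 4.46, 74.4 and 16.8 CPM with shNT, a range of 4.04. Tipin, which with Timeless steadies the fork, had 20.0, 19.7 and 25.8 CPM with sh900 and 23.6, 18.8 and 26.3 CPM with sh902, against 16.2, 43.5 and 15.6 CPM with shNT, a range of 1.47. The lowest Tipin value was in the undated control and the highest again in that of 30 August.

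**Figure D2:**
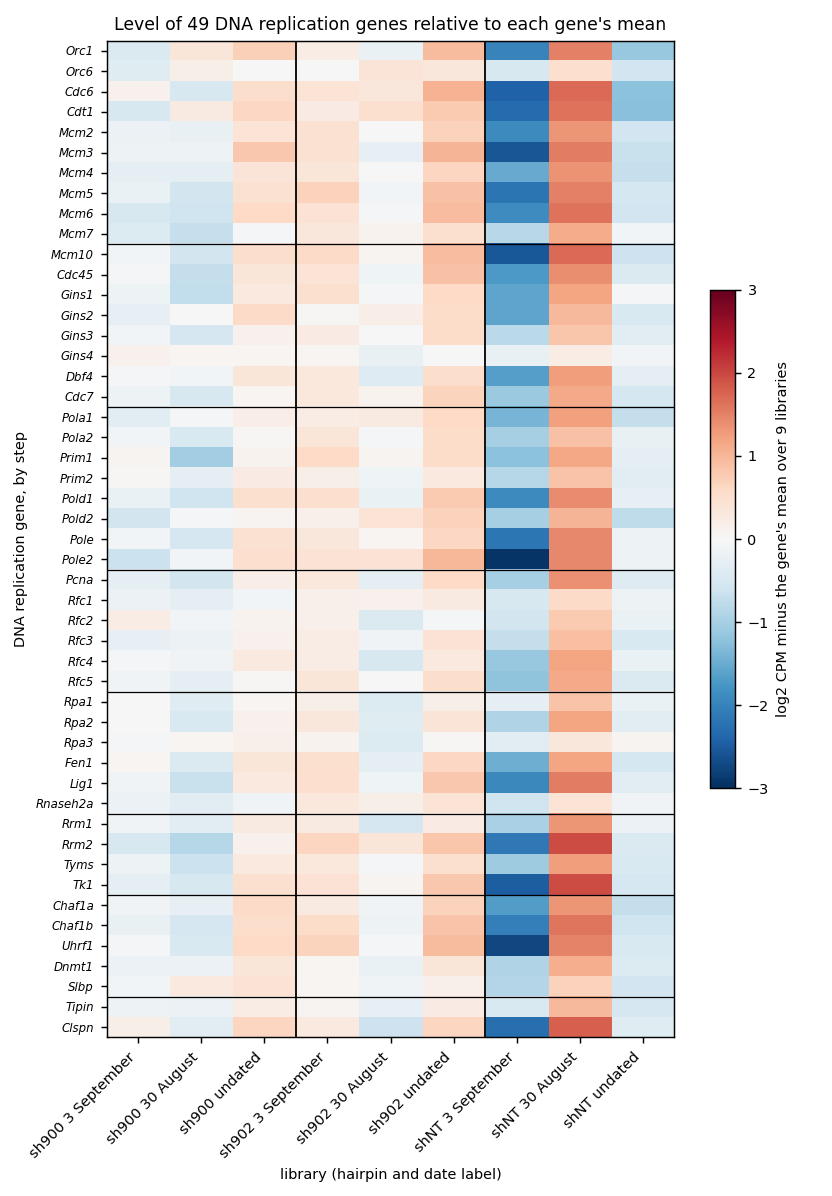
Log2 CPM of all 49 replication genes in 9 libraries, each gene relative to its own mean over the libraries, ordered by replication step, with the hairpin columns left of the shNT columns. The 30 August shNT column is the highest for 48 genes and the 3 September shNT column the lowest for 44, and the 6 hairpin columns lie within the range of the controls for 45, the exceptions being Gins4, Rpa1, Rpa3 and Rnaseh2a.

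Whether lowering Phf2 changed replication genes was asked first over all dates. No member was called for either hairpin. In edgeR's quasi-likelihood test with no term for the date, 0 of 49 members were called for the mean of both hairpins against shNT, where 0 of 17602 genes (0%) were called, and 0 had an unadjusted p under 0.05, against 2809 of all genes. The median log2 fold change of the members was -0.07 (range -0.55 to 0.22). For sh900 against shNT 0 members were called (0% of all genes), with a median of -0.23, and for sh902 against shNT 0 (0% of all genes), with a median of 0.12. With the date as a replicate block the members' counts remained 0 for the mean, for sh900 and for sh902, where 11.7%, 8.85% and 10.5% of all genes were called, and 0 members had an unadjusted p under 0.05. The blocked medians were 0.12, -0.03 and 0.34. In the comparisons without the block DESeq2 called 0 members, where it called 4.29% of all genes for the mean, 4.47% for sh900 and 4.82% for sh902. The medians turned on the controls, which these comparisons share. For the mean of both hairpins the median was -0.47 without the 3 September control and 0.96 without the 30 August control. For sh900 these values were -0.64 and 0.73, and for sh902 -0.30 and 1.19.

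Against the control of the same date, the hairpin libraries stood on opposite sides. With sh900 the median member differed from shNT by 1.22 on 3 September, -1.57 on 30 August and 0.64 in the undated libraries, on the log2 CPM scale with a prior count of 2. With sh902 these differences were 1.63, -1.30 and 0.99. All 49 genes were above the control of 3 September with both hairpins, and all 49 were below that of 30 August. This opposite order was found in 9.44% of all genes tested, and the reverse order in 9.95%. Among the undated libraries, 48 genes were above the control with each hairpin, against 49.6% of all genes with each. The exceptions were Rnaseh2a with sh900 and Rpa3 with sh902. The undated control lay between the dated controls for 47 genes, a count that has no value over all genes beside it.

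**Figure D3:**
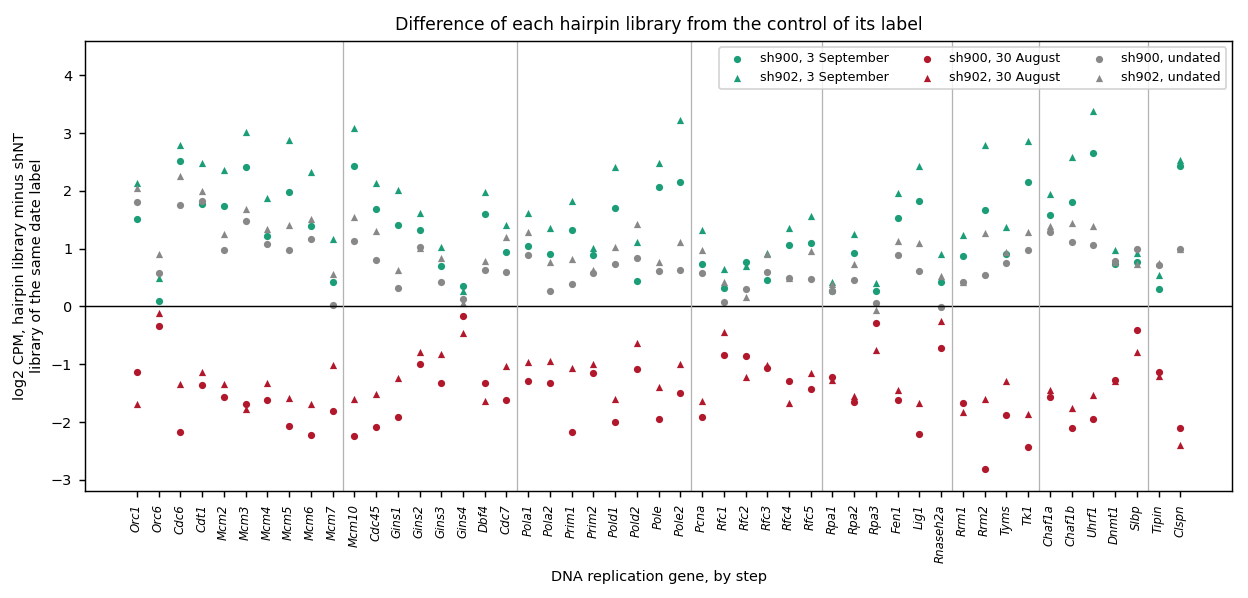
Difference in log2 CPM of each of the 49 replication genes from the shNT library of the same date label, ordered by step; circles are sh900, triangles are sh902, and colour gives the date label. On 3 September all points lie above 0, with medians of 1.22 and 1.63, and on 30 August all lie below 0, with medians of -1.57 and -1.30.

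By step, the differences on 3 September were largest in origin licensing, with medians of 1.63 for sh900 and 2.34 for sh902. They were smallest in strand binding and lagging-strand processing, with medians of 0.67 and 1.08. On 30 August the lowest median with sh900 was that of nucleotide supply, at -2.16, and with sh902 that of the 2 fork protection genes, at -1.80. In every step all genes were above the 3 September control and below the 30 August control.

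**Figure D4:**
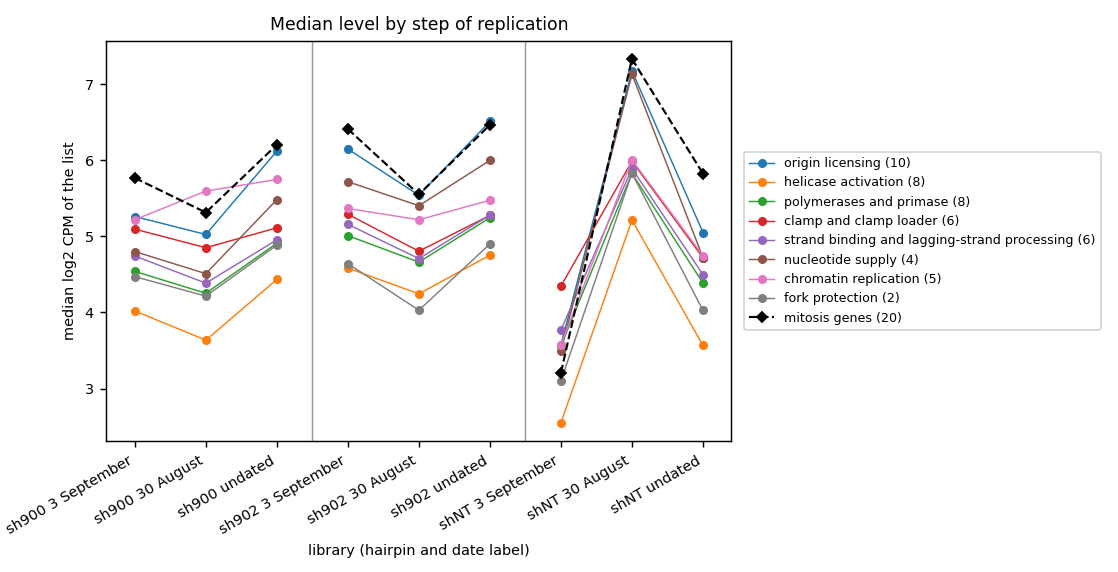
Median log2 CPM of the genes of each replication step and, dashed, of 20 mitosis genes, in each of the 9 libraries, with the number of genes in brackets. The median of origin licensing is 3.57 in the 3 September control and 7.18 in the 30 August control, and between 5.03 and 6.51 in the hairpin libraries.

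At each date label the hairpin libraries were also tested against the control. Each label has 1 control, whose spread was taken to equal that between the 2 hairpin libraries of a date (3 residual degrees of freedom). On 3 September edgeR called 1 of 49 members, Clspn, with a log2 fold change of 2.502 ± 0.284 (SE, adjusted p = 0.0498), where 0.165% of all genes were called. In all, 38 members had an unadjusted p under 0.05, against 2034 of the 17602 genes tested. Uhrf1 stood at 3.07 ± 0.45 (SE, adjusted p = 0.0576). The Clspn call was lost with the stricter filter, in the dated libraries alone and in each fit that left out 1 library except the undated control. On 30 August 0 members were called (0% of all genes), although 41 of 49 had an unadjusted p under 0.05, against 2052 of all genes. Clspn had the smallest adjusted p there, at -2.24 ± 0.24 (SE, adjusted p = 0.105). In the undated libraries 0 were called (0% of all genes), with a median of 0.87. There 26 members had an unadjusted p under 0.05, against 2947 of all genes. DESeq2 on the same design called 31 members on 3 September (5.08% of all genes), 31 on 30 August (4.32% of all genes) and 13 in the undated libraries (7.08% of all genes).

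The difference between the effects on both dates was tested as an interaction, because earlier results of these data had shown the opposite sides. Of the 49 members, 23 were called by edgeR and 0 of these lower, where 1.39% of all genes were called (241 higher and 3 lower). All 49 differences were positive, from 0.53 to 4.80, and their median was 2.84, a value that 2.76% of all genes reached, against a median of -0.05 over all genes. The smallest adjusted p belonged to Clspn, whose effect on 3 September exceeded that on 30 August by 4.75 ± 0.37 (SE, adjusted p = 0.013) on the log2 scale. Mcm3 followed with 4.50 ± 0.46 (SE, adjusted p = 0.0164) and Chaf1a with 3.29 ± 0.38 (SE, adjusted p = 0.0197). Uhrf1 had 4.80 ± 0.57 (SE, adjusted p = 0.0211) and Dbf4 3.28 ± 0.40 (SE, adjusted p = 0.0217). Among members that were not called, Pcna had 2.84 ± 0.48 (SE, adjusted p = 0.0585), Rrm2 4.42 ± 0.97 (SE, adjusted p = 0.142) and Gins4 0.61 ± 0.35 (SE, adjusted p = 0.812). The hairpin libraries of all 8 genes lay above the control on 3 September and below it on 30 August.

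By step, the interaction was called for 6 of 10 licensing genes, 4 of 8 helicase activation genes, 2 of 8 polymerase and primase genes and 1 of 6 clamp and loader genes. It was called for 3 of 6 strand binding and processing genes, 2 of 4 nucleotide genes, 4 of 5 chromatin genes and 1 of 2 fork protection genes. The count fell to 0 without the 3 September sh902 library (0% of all genes, smallest adjusted p of a member = 0.0653) and to 7 without the 30 August sh900 library (0.624% of all genes). It fell to 13 without the 3 September sh900 library (0.791%) and to 15 without the 30 August sh902 library (1.05%). DESeq2 called 41 members (3.39% of all genes), and edgeR without the low-count filter 42 (2.02% of all genes). All 49 differences were positive in each of these fits. Each date has 1 control, so a difference between dates and a difference between those control libraries cannot be told apart.

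**Figure D5:**
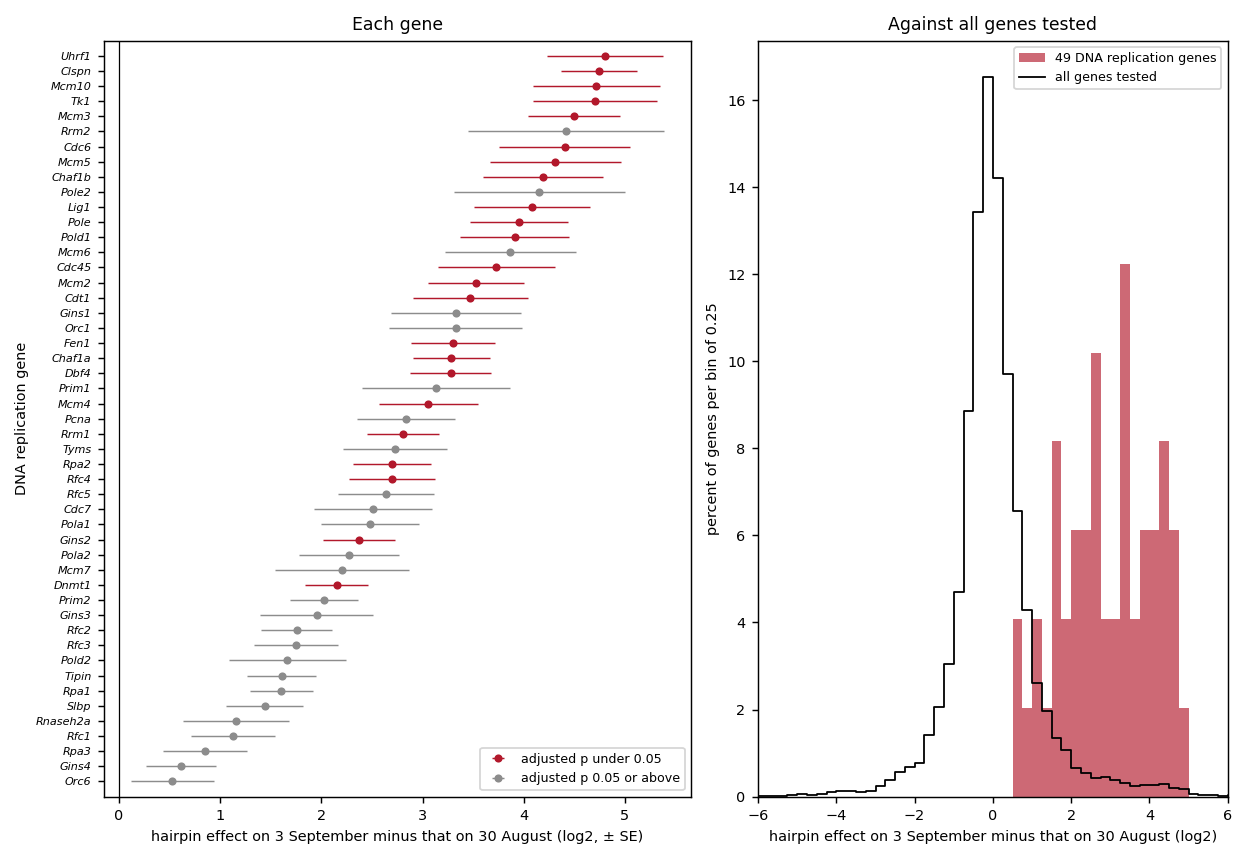
Left, the hairpin effect on 3 September minus that on 30 August for each of the 49 replication genes, in log2 with its SE, red where called. Right, the percent of the 49 genes (bars) and of all 17602 genes (line) in each bin of that difference. The replication genes run from 0.53 to 4.80 with a median of 2.84, against a median of -0.05 for all genes.

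In the hairpin libraries alone no replication gene was called between the dates. Between the 3 September and 30 August hairpin libraries, a comparison added after the data had been seen, edgeR called 0 of 49 members, where 4.38% of all genes were called. The members' median difference was 0.32 (range -0.45 to 0.74), and DESeq2 called 0 (11.6% of all genes). An unadjusted p under 0.05 was found for 5 members, against 3794 of the 17602 genes tested. Over all 3 groups, 3 September against 30 August gave 0 members called, where 20.5% of all genes were called. There 1 member had an unadjusted p under 0.05, against 6397 of all genes, and DESeq2 called 4 members (24.9% of all genes). The members' median was -0.68. That median was 0.21 without the 30 August control.

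Most members stood somewhat higher with sh902 than with sh900, and none passed the test. Members were higher with sh902 than with sh900 in 47 of 49 cases on 3 September, 36 on 30 August and 41 in the undated libraries, against 49.7%, 50.2% and 50.2% of all genes. At all 3 dates 35 were higher with sh902, against 26.3% of all genes, and 2, Gins4 and Rfc2, were lower. The median log2 fold change was 0.39. In edgeR's test 0 members were called without the block (0% of all genes) or with it (4.22% of all genes), 0 had an unadjusted p under 0.05 in either fit, and DESeq2 called 0 (5.88% of all genes). Without the block 2532 of all genes had such an unadjusted p.

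Genes of replication outside the 49 had positive interaction values in most cases. Of 52 further genes listed by role, all of which passed the filter, 45 were positive and edgeR called 13 in the interaction, all higher (1.39% of all genes), with a median of 1.67. The smallest adjusted p belonged to the nuclease gene Exo1 (3.68 ± 0.39, SE, adjusted p = 0.0164), to Pclaf, whose protein binds the clamp (4.58 ± 0.52, SE, adjusted p = 0.0189), and to the histone chaperone gene Asf1b (3.90 ± 0.49, SE, adjusted p = 0.0225). Of the 8 further genes listed under licensing (Orc2 to Orc5, Gmnn, Mcmbp, Mcm8 and Mcm9) 2 were called, and their values ran from -0.48 to 4.23. Orc2, Orc3, Orc4 and Orc5, the origin recognition subunits outside the 49, were singled out after their values were seen. Their interaction values were 0.51 ± 0.68, -0.48 ± 0.39, -0.40 ± 0.53 and 0.35 ± 0.34 (SE, adjusted p from 0.914 to 0.971). Between 3 September and 30 August over all groups 2 of the 52 were called, where 20.5% of all genes were. Rnaseh2b was called higher (0.64 ± 0.17, SE, adjusted p = 0.0314) and Nme1 lower (-0.65 ± 0.18, SE, adjusted p = 0.0394).

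Genes of other processes differed between the same libraries. All 20 mitosis genes listed passed the filter, and their summed level was 1603, 1093 and 2032 CPM with sh900 and 2211, 1362 and 2398 CPM with sh902, against 290.4, 4306 and 1545 CPM with shNT (3 September, 30 August, undated). In the interaction 19 of the 20 were called (1.39% of all genes), with a median of 4.51, and against the control of 3 September 7 were (0.165% of all genes). The astrocyte markers, 6 of 7 past the filter, summed to 3370.0, 747 and 1126 CPM with sh900 and 2467, 719 and 1200 CPM with sh902, against 5159, 742 and 2900 CPM with shNT. The astrocyte sum was highest in the 3 September control, where replication genes were lowest. The 9 oligodendrocyte lineage markers summed to 2329.5, 3095 and 2292 CPM with sh900 and 2023, 1272 and 1437 CPM with sh902. With shNT their sum was 2594, 2988 and 1984 CPM. The 10 neural stem cell markers summed to 7846, 13241 and 10286 CPM with sh900 and 6671, 9687 and 7737 CPM with sh902. With shNT their sum was 6080.5, 7116 and 6870 CPM. Neither sum was highest in the 3 September control. Neuronal markers, 7 of 8 past the filter, summed to 1081, 627 and 718 CPM with sh900 and 856, 476 and 634 CPM with sh902, against 1899, 687 and 1200 CPM with shNT. Most of each sum was Map2 alone, with 1037, 606 and 703 CPM with sh900 and 838, 464 and 627 CPM with sh902. Map2 had 1690, 676 and 1144 CPM with shNT. Neurod1 went another way, highest in the sh900 library of 30 August at 15.7 CPM, against 1.64 CPM in the 3 September control. The 4 endothelial markers, 1 of which passed the filter, summed to at most 7.97 CPM. The part of these cell types, and of the share of dividing cells, in the values of the replication genes was not tested.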

How the data were processed

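The authors deposited 1 table of estimated counts for 54232 Ensembl genes in 9 libraries. Per the submitters' processing notes the tools were STAR 2.5.0a, RSEM, Trimmomatic 0.36, cutadapt and FastQC, on GRCm38. The order, settings and annotation used are not stated in these sources. The deposited estimated counts needed no rounding, being whole. RSEM divides ambiguous reads by a model, and nothing states that strand was kept. Of the 49 members, 27 overlap another annotated gene, 20 of them on the other strand, and 2 have named pseudogenes, so their counts may be shared. Symbols and coordinates are from GENCODE M21 (GRCm38), promoters from RefSeq (GRCm38.p6).

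Libraries were grouped by the hairpin in their labels, 3 each. Totals of 23212472 to 32392496 leave genes under about 1 CPM on few counts. Tests used the quasi-likelihood F statistic of edgeR 4.0.16 in R 4.3.3 (robust dispersions, TMM factors, default filter by group, 17602 genes), with Benjamini-Hochberg adjustment over all genes and calls at an adjusted p under 0.05. The SE was taken as the size of the log2 fold change over the root of F. Fits by group had no block. A fit with label and group terms compared dates, and a fit of 6 cells, hairpin or shNT at each label, compared hairpins with shNT by label and gave the interaction. Log2 CPM used a prior count of 2.

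Libraries with the same date carry it in their titles, and their deviations from group means correlated at 0.46 to 0.64 (3 September), 0.40 to 0.63 (30 August) and 0.08 to 0.40 (undated), against -0.66 to 0.30 across labels. So the dates were treated as pairing their libraries, the undated ones only possibly, and results with the block are given next to those without it. No 2 libraries of a group agreed within sampling noise. Scripts were tested on simulated counts. Alternatives were DESeq2 1.42.0, the replicate block, RLE factors, library size alone, 2 other low-count filters, other prior counts, a fit of the 6 dated libraries, and leaving out each library in turn. Named genes were, in each step, the members with the largest and smallest range, Pcna, Rrm2 and Mcm2 to Mcm7, up to 5 called members a comparison and direction and, of other replication genes, up to 3 a comparison. The members, lists and tests were chosen with earlier results of these data known, so the opposite order by date is no independent finding.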

Additional observations from a re-analysis of the deposited data

Results flagged for a closer look

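The hairpin effect differed between the date labels for 23 of the 49 replication genes by edgeR's interaction test, where 1.39% of all genes were called. This difference is what brought these genes out, and the number of calls depended on single libraries, as given above. All values here are the log2 difference of hairpins from shNT on 3 September minus that on 30 August, and each date label has 1 control library. Among the origin licensing genes the value was 4.50 for Mcm3, 3.53 for Mcm2, 4.41 for Cdc6, 4.31 for Mcm5, 3.06 for Mcm4 and 3.47 for Cdt1. Among those that activate the helicase the value was 3.28 for Dbf4, 4.72 for Mcm10, 2.37 for Gins2 and 3.73 for Cdc45. Of the polymerase genes the value was 3.95 for Pole and 3.91 for Pold1. Of the clamp loader the value was 2.70 for Rfc4. In strand binding and lagging-strand processing the value was 3.30 for Fen1, 4.08 for Lig1 and 2.70 for Rpa2. In nucleotide supply the value was 2.81 for Rrm1 and 4.70 for Tk1. In chromatin replication the value was 3.29 for Chaf1a, 4.80 for Uhrf1, 4.19 for Chaf1b and 2.15 for Dnmt1. In fork protection the value was 4.75 for Clspn. In all 23 both hairpins stood above the control on 3 September and below it on 30 August. Their levels in the controls moved with those of 20 mitosis genes, whose sum was 290.4 CPM on 3 September and 4306 CPM on 30 August, and the part of the share of dividing cells in these differences was not tested.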

How the results depend on the processing

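The replicate block left the members' calls at 0 in the 4 comparisons by group, with medians of 0.12 for the mean of both hairpins, -0.03 for sh900, 0.34 for sh902 and 0.41 for sh902 against sh900. The median for the mean of both hairpins was -0.07 without the block, so its sign turned with the block, and 4 of the medians below crossed 0 when 1 library was left out; none of the 24 called values of single members changed sign. DESeq2, against edgeR, called 4 members between the dates, 31 on 3 September, 31 on 30 August, 13 in the undated libraries and 41 in the interaction. Without the low-count filter, which left 38220 genes, edgeR called 1 member between the dates. The share of all genes called between the dates without the filter is not given here, and the main fit called 20.5% of its 17602 genes. On 3 September, on 30 August, in the undated libraries and in the interaction edgeR without the filter called 34, 34, 16 and 42 members. Of the 38220 genes, 1291, 955, 1653 and 772 were called in these 4 comparisons. On 3 September, where the main fit called 0.165% of all genes, 2 members were called with library size alone, a fit whose own share is not given here. With at least 1 CPM in 3 libraries 0 were called, and 0 in the dated libraries alone. In the interaction RLE factors gave 24 calls (1.43% of all genes), library size alone 18 (1.11%), the stricter filter 20 (1.48%) and the dated libraries alone 16 (0.933%). Leaving out 1 library at a time, calls ran from 0 to 1 between the dates and from 0 to 2 on 3 September, with shares of all genes not given here. They ran from 0 to 24 in the interaction, where 0% to 1.4% of all genes were called. The medians of the members ran from -0.47 to 0.96 for the mean of both hairpins, from -0.64 to 0.73 for sh900, from -0.30 to 1.19 for sh902 and from -1.18 to 0.21 between the dates. They ran from 1.26 to 1.64 on 3 September, from 0.66 to 0.99 in the undated libraries, from 2.68 to 3.15 in the interaction and from 0.15 to 0.56 between the dates in the hairpin libraries. The interaction cannot be estimated without either dated control. Over all genes, DESeq2 called 755, 786, 848 and 1035 for the mean, sh900, sh902 and sh902 against sh900, where edgeR called 0, and 894, 760, 1246 and 596 on 3 September, on 30 August, in the undated libraries and in the interaction, where edgeR called 29, 0, 0 and 244. With the 6-letter E2F core, a window of 87.8% of the members with a promoter entry, and of 39% of all genes with one, held a match. The cause of these differences was not tested.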

Other observations

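Per kilobase of exon, the replication genes spanned a wide range of levels. Pcna led with a mean of 56.0 CPM per kilobase over the 9 libraries, followed by Rrm2 with 32.7, Mcm7 with 26.8, Mcm4 with 26.0, Dnmt1 with 25.4 and Uhrf1 with 23.2. Orc1, the largest origin recognition subunit, was the lowest of the 49, at 1.59. Outside the 49, 8 genes were listed under licensing: Orc2 to Orc5, Gmnn, Mcmbp, Mcm8 and Mcm9. Their median level was 4.98, 5.12 and 4.92 log2 CPM with sh900 and 5.11, 5.12 and 5.23 with sh902, against 5.22, 5.20 and 5.05 with shNT (3 September, 30 August, undated). That median hides unlike genes, since their interaction values ran from -0.48 to 4.23. The median of the 10 licensing genes within the 49 was 5.26, 5.03 and 6.12 log2 CPM with sh900 and 6.15, 5.54 and 6.51 with sh902, against 3.57, 7.18 and 5.05 with shNT. In the fork protection pair, the ratio of Clspn to Tipin in CPM was 1.22, 0.88 and 1.31 with sh900 and 1.11, 0.75 and 1.28 with sh902, against 0.28, 1.71 and 1.08 with shNT.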
